A study of Mus musculus with 6 samples.

Results

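The proteasome is the large protease complex that degrades proteins tagged with ubiquitin. Its transcripts were followed in cultured mouse embryonic fibroblasts (MEFs), primary cells that divide a limited number of times in culture. The genes described are the 46 of 21988 gene symbols in the table that consist of Psma, Psmb, Psmc, Psmd, Psme, Psmf or Psmg followed by a number, without Psmb8 and Psmb9. The MEFs were taken from C57BL/6 embryos at 13.5 days, grown in DMEM with 10% serum under 5% CO2, and passaged serially, and no other treatment is named. They were harvested at population doubling (PD) 2, 8 and 14, called PD2, PD8 and PD14, and the title of the series names senescence, in which aged cells cease to divide. Each group had 2 libraries, 1 strand-specific after removal of ribosomal RNA (ribodepleted, replicate 1) and 1 made by poly(A) enrichment (replicate 2). The labels do not say whether libraries came from separate cultures or embryos. The p-values thus measure only the spread between these 6 samples, which may be technical. With 1 library per group and method, that spread is how far the group differences disagree between the library methods. The standard errors rest on it as well.

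The barrel-shaped 20S core has outer rings of alpha subunits (Psma), which gate the channel, and inner rings of beta subunits (Psmb), some of which carry the proteolytic sites. The 19S regulatory particle caps the barrel. Its base holds the ATPases (Psmc) that unfold substrates, and its lid (Psmd) removes ubiquitin. Other genes encode alternative caps (Psme), an inhibitor (Psmf1) and chaperones that assemble the particle (Psmg1 to Psmg4 for the core, Psmd5, Psmd9 and Psmd10 for the base). Interferon replaces the catalytic beta subunits by inducible ones, among them Psmb10, and the transcription factor Nfe2l1 raises subunit genes when proteasome activity is short.

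Levels are given as the authors' TPM, the relative abundance of a transcript corrected for its length. They hold no read numbers, so depth and counting error are unknown. The TPM in the table summed to 937217 to 950531 in ribodepleted libraries and to 1000000 in each poly(A) library, and 12554 to 12827 genes had at least 1 TPM. The fibroblast label was borne out by its markers, of which 12 of 12 had at least 1 TPM in at least 2 libraries, with summed levels of 22866 to 37288 TPM in ribodepleted and 19096 to 27473 TPM in poly(A) libraries. Of markers of other cells, 15 of 15 for macrophages and leukocytes, 6 of 9 for endothelium, 4 of 9 for epithelium, 5 of 7 for skeletal muscle, 5 of 6 for neural cells and 0 of 6 for erythroid cells reached that level. The endothelial gene Tie1 was at 0 in every library. The macrophage sum was 171, 33.0 and 45.5 TPM at PD2, PD8 and PD14 in ribodepleted and 441, 761 and 725 TPM in poly(A) libraries. The methods thus differed in its direction as well as its level. Most of the poly(A) sum was Lyz2, at 337, 621 and 569 TPM. C1qa, C1qb and C1qc went against that sum, being lower at PD14 than at PD2 in poly(A) libraries too. Every other marker of this list was higher at PD14 than at PD2 in poly(A) libraries, among them Adgre1 (34.4 against 5.69 TPM). The sums of 3 other lists were lower at PD14 than at PD2 in both methods. Skeletal muscle markers summed to 5.498 TPM at PD14 against 50.3 TPM at PD2 in ribodepleted libraries, and to 12.5 against 109 TPM in poly(A) libraries. Epithelial markers summed to 6.19 against 23.3 TPM and to 2.75 against 42.9 TPM, and endothelial markers to 31.2 against 50.8 TPM and to 69.3 against 111 TPM. The muscle genes Des, Acta1, Myh3 and Tnnt3, the keratins Krt18 and Krt19, and the endothelial receptors Kdr and Flt1 passed as lower by limma. Of all genes tested, 4.77% were called lower. Actc1, Krt8, Krt14, Emcn and Erg had fitted differences below 0 and did not pass. The endothelial genes Tek and Esam were above 0 and did not pass (0.33 ± 0.37 and 0.36 ± 0.35). The neural sum was 183 TPM at PD14 against 122 TPM at PD2 in ribodepleted libraries, but 148 against 221 TPM in poly(A) libraries. Of the neural genes, Map2 passed as higher, and Nes and Gap43 as lower. The part of these sums in the proteasome values was not tested. In such bulk samples, fewer cells of a type and less RNA per cell cannot be told apart.

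Proteasome genes were among the abundant transcripts of these cells. Of the 46, 45 passed the filter of at least 1 TPM in at least 2 libraries, as did 13332 of all genes. The median level over the 6 libraries was 143 TPM for all 46 genes, against 25 TPM for all genes past the filter. The gene below the filter was Psmb11, the beta subunit of the thymus-specific proteasome. It had 0.0213, 0 and 0.0238 TPM at PD2, PD8 and PD14 in ribodepleted libraries and 0.0164, 0.0201 and 0.0126 TPM in poly(A) libraries. The 46 genes took 0.631%, 0.529% and 0.472% of the TPM in the table at PD2, PD8 and PD14 in ribodepleted libraries, and 0.820%, 0.744% and 0.756% in poly(A) libraries. Their share was thus lowest at PD14 in the one method and at PD8 in the other. The plot of levels shows subunits of the core and of the 19S particle in a narrow band, with chaperones, the inhibitor and Psmb10 below it.

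**Figure D1:**
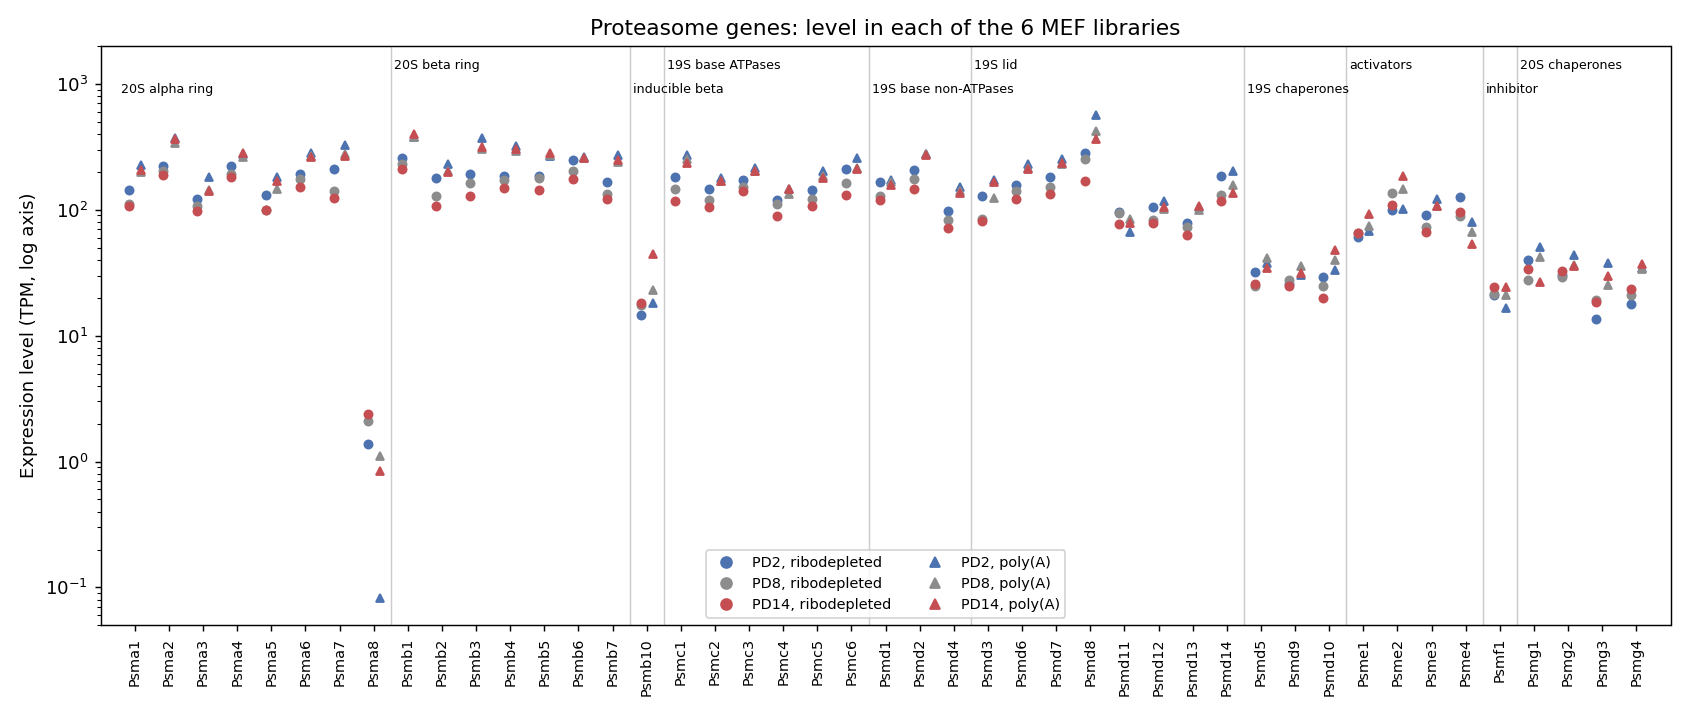
Level of each of the 45 proteasome genes past the filter in each of the 6 MEF libraries, in TPM on a log axis, grouped by role; circles are ribodepleted and triangles poly(A) libraries, coloured by group, 1 library per point. The 31 subunits of the core and the 19S particle, without the testis form Psma8, averaged 82.5 (Psmd11) to 343 TPM (Psmd8) over the libraries, and Psma8 was at 0.0821 to 2.40 TPM.

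The comparison of PD14 with PD2 asks what changed over the whole passage series. Of the 45 genes, 2 fell and 0 rose, both of them lid subunits: Psmd8 and Psmd14, the subunit that cuts ubiquitin off substrates. The test was limma on log2(TPM + 1) over 13332 genes with library method as a block, at a Benjamini-Hochberg adjusted p under 0.05. That is 4.44% of the 45, and 4.77% of all genes tested were lower and 6.41% higher, so the share called lower was close to the background. Over all genes 854 of 1490 calls were higher, and 736 of 1570 after quantile normalization. At an unadjusted p under 0.05 there were 10 of the 45 genes, which is 22.2%, against 32.0% of all genes. The direction was one-sided: the fitted log2 difference was below 0 for 38 of 45 genes, with a median of -0.25, against 45.1% of all genes and a median of 0.06. The libraries did not share this evenly. Within ribodepleted libraries the median PD14 minus PD2 difference was -0.38 and 37 of 45 genes were below 0. Within poly(A) libraries it was -0.09 and 32 were below 0. Of all genes tested, 45.8% were below 0 in ribodepleted and 46% in poly(A) libraries. Leaving out the PD2 or the PD14 ribodepleted library moved the median to -0.14 and -0.11, and leaving out the PD2 or the PD14 poly(A) library moved it to -0.38 and -0.36.

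**Figure D2:**
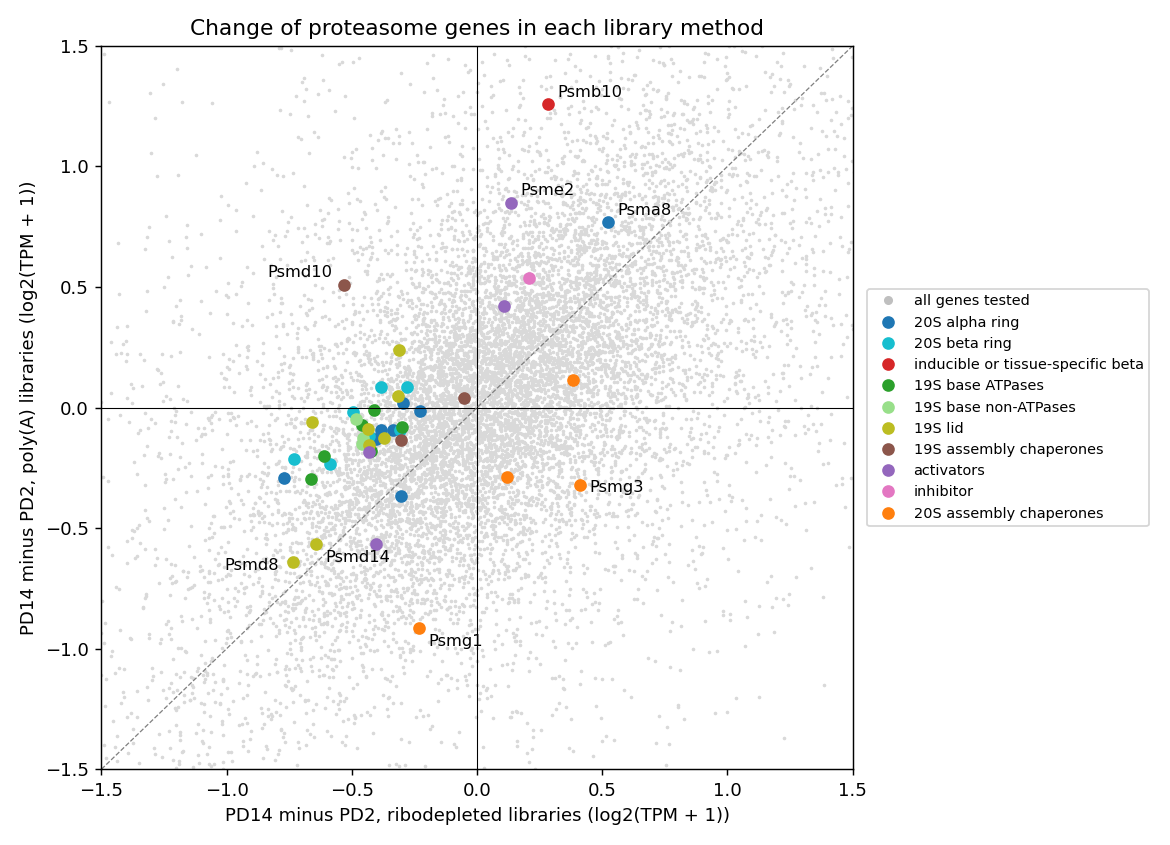
PD14 minus PD2 difference in log2(TPM + 1) within the ribodepleted (x axis) and the poly(A) libraries (y axis), 1 point per gene, coloured points for the 45 proteasome genes by role and grey for all genes tested; 1447 genes beyond 1.5 on an axis are not drawn. Of the proteasome genes, 30 lay below 0 on both axes, 6 above 0 on both, and 39 had the lower value in ribodepleted libraries. Of all 13332 genes tested, 30.8% lay below 0 on both axes and 5172 genes above 0 on both. The share of all genes with the lower value in ribodepleted libraries was not counted.

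The lid held both genes that passed. Psmd8, a lid subunit that joins late in assembly, had 283, 254 and 169.6 TPM at PD2, PD8 and PD14 in ribodepleted libraries and 566, 419.6 and 363 TPM in poly(A) libraries. Its level was lowest at PD14 in both methods, though the poly(A) library of PD14 stood above the ribodepleted one of PD2. It fell by 0.69 ± 0.14 (SE, n = 2 libraries per group) on the log2(TPM + 1) scale (limma adjusted p = 0.0432). Psmd14 had 185, 129.9 and 118 TPM in ribodepleted and 202, 157 and 136 TPM in poly(A) libraries at PD2, PD8 and PD14. Here PD14 and PD2 did not overlap: both PD14 libraries were below both PD2 libraries, and PD8 lay between them within each method. It fell by 0.60 ± 0.11 (limma adjusted p = 0.0382). Both calls were narrow. Neither held without the filter on low TPM (adjusted p = 0.0734 for Psmd8 and 0.0586 for Psmd14), and Psmd14 lost its call whichever library was left out (adjusted p = 0.0572 to 0.130). Psmd8 lost it without any but the PD2 ribodepleted library (adjusted p = 0.0880 to 0.153, and 0.0494 without that one). Psmd8 lies at chr7:29174188-29180701 on the minus strand and Psmd14 at chr2:61711694-61800376 on the plus strand (mm10, GENCODE M21), and neither shares exonic bases with another gene or has a near-identical copy.

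None of the other lid genes passed. Psmd3, a scaffold of the lid, had 128, 84.4 and 81.0 TPM at PD2, PD8 and PD14 in ribodepleted and 172, 124 and 165 TPM in poly(A) libraries. In the poly(A) libraries it was lowest at PD8 and near its PD2 level at PD14. Psmd6, which helps to join lid and base, had 158, 139.7 and 122 TPM in ribodepleted and 231, 215 and 211 TPM in poly(A) libraries, lower at each later doubling in both. Psmd12, another scaffold, had 106, 82.2 and 78.2 TPM in ribodepleted and 117, 101 and 105 TPM in poly(A) libraries, with PD8 and PD14 below PD2 in both. Psmd7, the partner with which Psmd14 forms the active enzyme, had 182, 150.4 and 134 TPM in ribodepleted and 251, 232 and 236 TPM in poly(A) libraries. Its fitted difference was -0.26 ± 0.13 (adjusted p = 0.241), and whether it differed from that of Psmd14 was not tested. Psmd11, which ties the lid to the core, had 95.8, 93.5 and 77.1 TPM in ribodepleted and 66.0, 84.6 and 78.1 TPM in poly(A) libraries. Psmd13 had 78.1, 73.4 and 62.6 TPM in ribodepleted and 104, 99.1 and 108 TPM in poly(A) libraries. Both were lower at PD14 than at PD2 in ribodepleted and higher in poly(A) libraries. Of Psmd13, 342 exonic bases overlap Sirt3, so its value is uncertain.

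Promoters are shown for the 2 genes that fell, Psmd8 and Psmd14, and for Psmc6 and Psme1, which were not called, as examples of the motifs searched. RefSeq (GRCm38.p6) had an entry, from 250 bases before to 50 after the start of the gene, for 38 of the 46, and no entry was matched for Psma8, Psmb1, Psmb2, Psmb7, Psmc3, Psmd3, Psmd7 or Psmg2. Each was searched on both strands for the core of the antioxidant response element (TGACNNNGC), which Nfe2l1 and Nfe2l2 bind, the CCAAT box of NF-Y, the ETS core CCGGAAG, and an interferon-type element of GAAA, any 2 bases and GAAA. The sequences run 5′ to 3′ in the direction of the gene, with matches in capitals. Psmc6 carries both an antioxidant and an ETS match, as Psmd12 and Psme4 also do, and Psme1 an interferon-type match. They lie at chr7:29180624-29180923 (minus strand), chr2:61711444-61711743, chr14:45329574-45329873 and chr14:55578244-55578543 (plus strand).
Psmd8: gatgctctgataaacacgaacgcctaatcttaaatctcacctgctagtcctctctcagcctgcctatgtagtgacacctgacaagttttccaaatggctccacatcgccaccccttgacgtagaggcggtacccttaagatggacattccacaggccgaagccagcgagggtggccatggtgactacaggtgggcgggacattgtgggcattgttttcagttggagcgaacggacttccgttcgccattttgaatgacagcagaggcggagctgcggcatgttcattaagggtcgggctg
Psmd14: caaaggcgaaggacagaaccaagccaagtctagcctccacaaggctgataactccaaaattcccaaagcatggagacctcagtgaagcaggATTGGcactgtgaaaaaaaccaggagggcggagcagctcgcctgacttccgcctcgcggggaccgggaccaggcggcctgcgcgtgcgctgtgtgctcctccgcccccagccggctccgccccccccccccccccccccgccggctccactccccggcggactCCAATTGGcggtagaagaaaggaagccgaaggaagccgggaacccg
Psmc6: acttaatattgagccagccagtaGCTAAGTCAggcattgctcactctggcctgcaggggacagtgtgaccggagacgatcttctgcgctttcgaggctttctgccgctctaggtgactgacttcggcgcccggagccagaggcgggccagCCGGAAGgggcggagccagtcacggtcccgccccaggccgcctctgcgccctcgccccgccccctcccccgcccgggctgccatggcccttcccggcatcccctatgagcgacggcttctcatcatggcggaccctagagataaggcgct
Psme1: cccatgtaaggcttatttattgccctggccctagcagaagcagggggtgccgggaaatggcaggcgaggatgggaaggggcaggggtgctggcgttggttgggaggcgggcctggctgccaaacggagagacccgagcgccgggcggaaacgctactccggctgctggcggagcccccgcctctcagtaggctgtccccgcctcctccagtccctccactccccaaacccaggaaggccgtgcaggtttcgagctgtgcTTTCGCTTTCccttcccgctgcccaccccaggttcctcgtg
The window of Psmd8 held none of the 4 motifs. That of Psmd14 held CCAAT boxes at -159 on the reverse strand and, as an overlapping pair in CCAATTGG, at 5 and 8 on opposite strands, counted from the start of the gene. In Psmc6 the antioxidant core began at -227 on the reverse strand and the ETS core at -100, and in Psme1 the interferon-type match began at 10 on the reverse strand.

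Over the 38 promoters, the antioxidant core was in 6 (Psmb5, Psmb6, Psmc6, Psmd9, Psmd12 and Psme4), which is 15.8%, against 14.0% of all 27025 genes with an entry and 16.8% of the 10119 of them that were tested. CCAAT was in 13, or 34.2%, against 41.1% and 43.0%. The ETS core was in 14, or 36.8%, against 9.93% of all and 19.3% of tested genes: Psma6, Psmc1, Psmc2, Psmc6, Psmd2, Psmd4, Psmd6, Psmd11, Psmd12, Psmd13, Psme3, Psme4, Psmg1 and Psmg3. The interferon-type match was in 5, or 13.2%, against 3.99% and 3.76%: Psmb3, Psmd4, Psmd9, Psme1 and Psmg4. A match describes letters in the window, not a site in use.

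In the alpha ring, 0 of 8 genes passed between PD14 and PD2, and the summed level at PD14 relative to PD2 differed by -23.3% in ribodepleted and by -8.11% in poly(A) libraries. Psma7, an alpha subunit known to bind regulators outside the proteasome, had 210.4, 142 and 123 TPM at PD2, PD8 and PD14 in ribodepleted and 328, 276 and 268 TPM in poly(A) libraries. It was lower at each later doubling in both methods, with a fitted difference of -0.53 ± 0.15 (adjusted p = 0.0849). Without the PD2 poly(A) library that difference was -0.73 and passed (adjusted p = 0.0467). The other constitutive alpha genes had smaller fitted differences, although within poly(A) libraries Psma3 differed more than Psma7 (-0.37 and -0.29). Psma3, whose tail helps to close the gate of the core, had 121, 106 and 97.9 TPM in ribodepleted and 182, 144 and 141 TPM in poly(A) libraries. Psma6 had 191, 175 and 152 TPM in ribodepleted and 281, 266 and 263 TPM in poly(A) libraries. These, like Psma7, were lower at each later doubling in both methods, and Psma3 has a near-identical copy in the table, Gm609. Psma1 had 143, 111 and 108 TPM in ribodepleted and 228, 198 and 208 TPM in poly(A) libraries. Psma2, the most abundant alpha gene in poly(A) libraries, had 221, 202 and 189 TPM in ribodepleted and 370.1, 338 and 366 TPM in poly(A) libraries. Psma5 had 131, 98.7 and 99.9 TPM in ribodepleted and 181, 145 and 169.5 TPM in poly(A) libraries. In poly(A) libraries Psma1, Psma2 and Psma5 were lowest at PD8. Psma4 had 223, 194 and 182 TPM in ribodepleted and 277, 264 and 281 TPM in poly(A) libraries, and was the one constitutive alpha gene above its PD2 level at PD14 in poly(A) libraries. It shares 114 exonic bases with AY074887. Psma8, the testis form that takes the place of Psma7 in germ cells, had 1.37, 2.12 and 2.40 TPM in ribodepleted and 0.0821, 1.11 and 0.846 TPM in poly(A) libraries, low in each. Its fitted difference was 0.65 ± 0.28 (adjusted p = 0.186), and the added 1 understates changes at such levels.

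In the beta ring, 0 of 7 genes passed, and the summed level at PD14 relative to PD2 differed by -26.7% in ribodepleted and by -4.41% in poly(A) libraries. The catalytic genes are Psmb5 (chymotrypsin-like), Psmb6 (caspase-like) and Psmb7 (trypsin-like). Psmb5 had 186, 180.3 and 142 TPM at PD2, PD8 and PD14 in ribodepleted and 265, 269.8 and 281 TPM in poly(A) libraries, lower at each later doubling in the one method and higher in the other. Psmb6 had 250.0, 204 and 177 TPM in ribodepleted and 263, 258 and 259.6 TPM in poly(A) libraries, nearly level in the second. Psmb7 had 165, 133 and 122 TPM in ribodepleted and 271, 239 and 249.6 TPM in poly(A) libraries, and 405 of its exonic bases overlap Nek6. None of these catalytic genes passed. Their fitted differences were -0.15 ± 0.16 for Psmb5, -0.26 ± 0.15 for Psmb6 and -0.28 ± 0.13 for Psmb7 (adjusted p = 0.552, 0.301 and 0.213). Among the structural beta genes, Psmb2 had 178, 129 and 106 TPM in ribodepleted and 230.2, 205 and 198 TPM in poly(A) libraries, lower at each later doubling in both. Psmb3 had 193, 162 and 128 TPM in ribodepleted and 369, 303 and 313 TPM in poly(A) libraries, and has a near-identical copy in the table, Gm4950. These structural genes had the lowest fitted differences of the ring, -0.47 ± 0.16 for Psmb2 and -0.41 ± 0.14 for Psmb3 (adjusted p = 0.112 and 0.125). Psmb1 had 257, 232 and 211 TPM in ribodepleted and 378, 382 and 401 TPM in poly(A) libraries. Psmb4 had 185, 173 and 149 TPM in ribodepleted and 322, 295 and 302 TPM in poly(A) libraries. Psmb1, like Psmb5, was lower at each later doubling in ribodepleted and higher in poly(A) libraries, while Psmb4 was lower at PD14 than at PD2 in both.

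Of the 6 ATPases of the base, 0 passed, and their summed level at PD14 relative to PD2 differed by -28.8% in ribodepleted and by -10.1% in poly(A) libraries. Psmc6 had 209.5, 163 and 132 TPM at PD2, PD8 and PD14 in ribodepleted and 257, 213 and 209 TPM in poly(A) libraries. Psmc1 had 181, 146 and 118 TPM in ribodepleted and 270.2, 253 and 235 TPM in poly(A) libraries. Both were lower at each later doubling in both methods, with fitted differences of -0.48 ± 0.14 for Psmc6 and -0.41 ± 0.14 for Psmc1 (adjusted p = 0.0843 and 0.122). Psmc2 had 146, 121 and 106 TPM in ribodepleted and 177, 169 and 168 TPM in poly(A) libraries. Psmc5 had 144, 122 and 108 TPM in ribodepleted and 202, 185 and 178 TPM in poly(A) libraries. These too were lower at each later doubling in both methods, by little in poly(A) libraries for Psmc2. Psmc3 had 173, 151 and 140.3 TPM in ribodepleted and 216, 202 and 204 TPM in poly(A) libraries, and shares 215 exonic bases with Slc39a13. Psmc4 had 119, 110.4 and 89.5 TPM in ribodepleted and 147, 132 and 146 TPM in poly(A) libraries, with PD14 and PD2 nearly equal in the second.

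The scaffolds Psmd1 and Psmd2 and the ubiquitin receptor Psmd4 make up the rest of the base. Psmd1 had 166, 129.7 and 120.3 TPM at PD2, PD8 and PD14 in ribodepleted and 173, 165 and 159 TPM in poly(A) libraries, and shares 553 exonic bases with Htr2b and Gm21972. Psmd2 had 207, 176 and 147 TPM in ribodepleted and 279.5, 276 and 271 TPM in poly(A) libraries. Psmd4 had 98.1, 82.2 and 71.1 TPM in ribodepleted and 151, 140.1 and 136 TPM in poly(A) libraries. Each was lower at each later doubling in both methods, by more in ribodepleted libraries, and 0 of 3 passed. The fitted differences were -0.29 ± 0.13 for Psmd1, -0.27 ± 0.15 for Psmd2 and -0.30 ± 0.13 for Psmd4 (adjusted p = 0.206, 0.271 and 0.178).

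Over the 31 constitutive subunits of the core and the 19S particle, without Psma8, the direction in ribodepleted libraries was uniform. All 31 were lower at PD14 than at PD2, against 45.8% of all genes tested. Their median log2 difference was -0.43, between -0.77 (Psma7) and -0.23 (Psma2). In the poly(A) libraries 26 of 31 were lower, against 46% of all genes tested. The median there was -0.10, between -0.64 (Psmd8) and 0.24 (Psmd11), and Psma4, Psmb1, Psmb5, Psmd11 and Psmd13 were higher. Each method compares 1 PD14 library with 1 PD2 library, so the genes are not independent of each other. The plot of fitted differences sets these subunits beside the other roles.

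**Figure D3:**
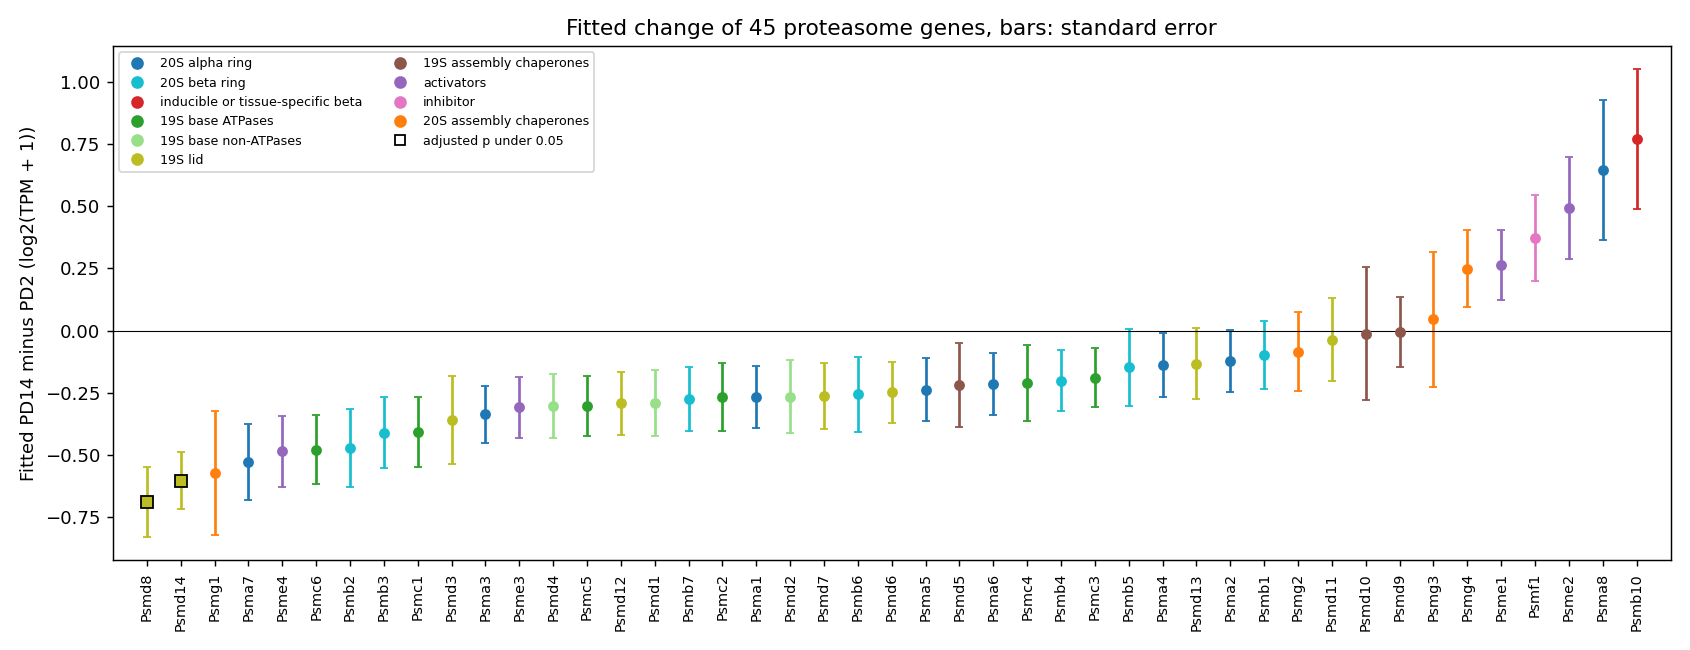
Fitted PD14 minus PD2 difference of each proteasome gene in log2(TPM + 1) with its standard error (n = 2 libraries per group), in order of size and coloured by role, with squares for genes at an adjusted p under 0.05. The values run from -0.69 (Psmd8) to 0.77 (Psmb10), and Psmd8 and Psmd14 are the genes past the threshold.

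The assembly chaperones were less abundant than the subunits and followed no shared direction, and 0 of 7 passed. Psmg1 and Psmg2 are partners in a dimer that templates the alpha ring. Psmg1 had 39.9, 27.5 and 33.9 TPM at PD2, PD8 and PD14 in ribodepleted and 50.7, 42.2 and 26.5 TPM in poly(A) libraries. It had the third lowest fitted difference of the 45 genes, -0.57 ± 0.25 (adjusted p = 0.188), and the larger part of it lay within poly(A) libraries. Psmg2 had 30.2, 29.3 and 32.9 TPM in ribodepleted and 43.6, 36.4 and 35.5 TPM in poly(A) libraries. Psmg3 and Psmg4 form another dimer of ring assembly. Psmg3 had 13.7, 19.2 and 18.5 TPM in ribodepleted and 37.6, 25.5 and 29.9 TPM in poly(A) libraries, and 280 of its exonic bases overlap Gm26938. Psmg4 had 17.9, 20.96 and 23.7 TPM in ribodepleted and 34.3, 33.8 and 37.2 TPM in poly(A) libraries. Psmg2 and Psmg3 were higher at PD14 than at PD2 in ribodepleted and lower in poly(A) libraries, and Psmg4 was higher in both. Of the chaperones of the base, Psmd5 had 32.0, 24.8 and 25.7 TPM in ribodepleted and 37.8, 41.2 and 34.4 TPM in poly(A) libraries. Psmd9 had 25.6, 27.5 and 24.7 TPM in ribodepleted and 30.5, 35.5 and 31.4 TPM in poly(A) libraries. Psmd5 was lower at PD14 than at PD2 in both methods, and Psmd9 was nearly equal. Psmd10 (gankyrin), a base chaperone also known to bind the retinoblastoma protein, had 29.4, 24.8 and 20.04 TPM in ribodepleted and 33.2, 39.8 and 47.6 TPM in poly(A) libraries. Its direction differed by method, with PD14 minus PD2 differences of -0.53 in ribodepleted and 0.51 in poly(A) libraries, the widest gap of the 45 genes.

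The alternative caps differed in direction, and 0 of 4 passed. Psme1 and Psme2 are the interferon-inducible subunits of the PA28 cap. Psme1 had 61.0, 65.7 and 65.7 TPM at PD2, PD8 and PD14 in ribodepleted and 68.4, 74.2 and 91.9 TPM in poly(A) libraries, and shares 14 exonic bases with Emc9. Psme2 had 99.8, 136 and 109.8 TPM in ribodepleted and 102, 145 and 185 TPM in poly(A) libraries, and its near-identical copy Psme2b is in the table at 0.852 to 5.61 TPM. Both were higher at PD14 than at PD2 in both methods, with fitted differences of 0.26 ± 0.14 for Psme1 and 0.49 ± 0.20 for Psme2 (adjusted p = 0.256 and 0.172). Psme3, the nuclear PA28 subunit, had 90.2, 73.3 and 66.5 TPM in ribodepleted and 122, 107 and 107 TPM in poly(A) libraries. Psme4, the PA200 cap, had 126, 89.3 and 95.3 TPM in ribodepleted and 79.2, 66.2 and 53.2 TPM in poly(A) libraries. Both were lower at PD14 than at PD2 in both methods, with fitted differences of -0.31 ± 0.12 for Psme3 and -0.48 ± 0.14 for Psme4 (adjusted p = 0.163 and 0.0892). Psmf1, the inhibitor of the core, had 20.98, 21.4 and 24.4 TPM in ribodepleted and 16.4, 21.2 and 24.3 TPM in poly(A) libraries. It was higher at each later doubling in both methods and did not pass (0.37 ± 0.17, adjusted p = 0.207).

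Psmb10, the inducible subunit that replaces Psmb7, had the largest positive fitted difference on the log2(TPM + 1) scale, while with a pseudocount of 0.1 that of the scarce Psma8 was larger (1.57 beside 0.80). Its levels were 14.7, 17.5 and 18.1 TPM at PD2, PD8 and PD14 in ribodepleted and 18.2, 23.1 and 44.9 TPM in poly(A) libraries. It was higher at each later doubling in both methods, and the poly(A) library of PD14 stood well above the rest. The fitted difference was 0.77 ± 0.28 (adjusted p = 0.133), with 0.29 within ribodepleted and 1.26 within poly(A) libraries, and without the PD14 poly(A) library it was 0.31 (adjusted p = 0.406). Its share of the summed Psmb7 and Psmb10 TPM was 8.17%, 11.6% and 12.9% at PD2, PD8 and PD14 in ribodepleted, and 6.29%, 8.81% and 15.2% in poly(A) libraries. Psmb8, which replaces Psmb5, made up 1.48%, 6.77% and 13.6% of the pair's TPM in ribodepleted and 1.58%, 5.56% and 13.8% in poly(A) libraries. Psmb9, which replaces Psmb6, made up 0.591%, 0.716% and 2.16% in ribodepleted and 0.581%, 1.28% and 4.34% in poly(A) libraries. The share of each inducible subunit was highest at PD14 in both methods, and the constitutive partner remained the more abundant transcript of each pair. A share also moves with the constitutive partner. Psmb7 was at 122 TPM at PD14 against 165 TPM at PD2 in ribodepleted and at 249.6 against 271 TPM in poly(A) libraries. Leukocytes also express the inducible subunits. The summed macrophage and leukocyte markers were lower at PD14 than at PD2 in ribodepleted libraries (45.5 against 171 TPM). They were higher in poly(A) libraries (725 against 441 TPM). Lyz2 made up most of the poly(A) sum (569 against 337 TPM). C1qa, C1qb and C1qc were lower at PD14 than at PD2 there, and every other marker of the list was higher. Among those, Adgre1 was at 34.4 against 5.69 TPM and Tyrobp at 19.8 against 11.5 TPM. The part of leukocytes in the levels and shares of the inducible subunits was not tested.

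**Figure D4:**
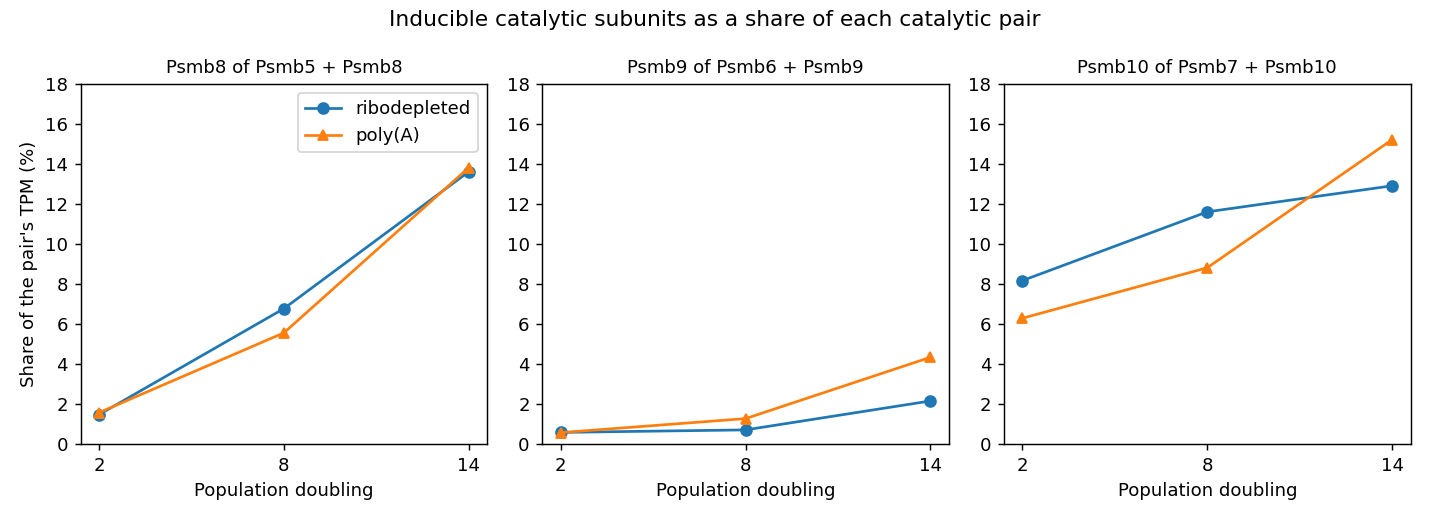
Share of the inducible subunit in the summed TPM of each inducible and constitutive pair (percent), at PD2, PD8 and PD14, 1 library per point and a line per method, for Psmb10 with Psmb7, Psmb8 with Psmb5 and Psmb9 with Psmb6. The shares at PD14 were 12.9% and 15.2% for Psmb10, 13.6% and 13.8% for Psmb8, and 2.16% and 4.34% for Psmb9 in ribodepleted and poly(A) libraries.

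The steps between groups were compared to place the differences along the series; both comparisons with PD2 share its libraries. Between PD8 and PD2, 0 of 45 genes rose and 0 fell, beside 0.0225% of all genes higher and 0% lower. The median difference was -0.15 with 36 of 45 below 0, against 0.04 for all genes. It was -0.23 within ribodepleted and -0.11 within poly(A) libraries, -0.06 without the PD2 ribodepleted library and -0.27 without the PD2 poly(A) library. At an unadjusted p under 0.05 there were 5 genes: Psma5 (-0.36 ± 0.13), Psma7 (-0.41 ± 0.15), Psmd3 (-0.53 ± 0.18), Psmd14 (-0.43 ± 0.11) and Psme4 (-0.38 ± 0.14), which is 11.1% against 20.3% of all genes. Between PD14 and PD8, 0 rose and 0 fell by limma, as did 0% of all genes in either direction. The median was -0.08 against 0.01 for all genes, with -0.14 within ribodepleted and 0.01 within poly(A) libraries. Without the PD14 ribodepleted library it turned to 0.04, and without the PD14 poly(A) library it was -0.18. The 1 gene at an unadjusted p under 0.05 was Psmd8, at -0.40 ± 0.14 (adjusted p = 0.868), which is 2.22% against 5.60% of all genes. The difference of the late from the early step passed for 0 of 45 genes and 0% of all genes, with 0 and 566 at an unadjusted p under 0.05. A moderated F test over the 3 groups called 0 of 45, beside 1.46% of all genes, with Psma7, Psmc6, Psmd8, Psmd14 and Psme4 at an unadjusted p under 0.05, or 11.1% against 24.2% of all genes.

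The order of the groups also differed by method. In the ribodepleted libraries, 32 of 45 genes (71.1%) had a lower level at each later doubling, against 24.3% of all genes tested. In the poly(A) libraries it was 17 (37.8%), against 28.4%. The 14 genes that did so in both were Psma3, Psma6, Psma7, Psmb2, Psmc1, Psmc2, Psmc5, Psmc6, Psmd1, Psmd2, Psmd4, Psmd6, Psmd8 and Psmd14, which is 3 genes of the alpha ring, 1 of the beta ring, 4 ATPases, the 3 other base genes and 3 of the lid, with no chaperone or cap. The share of all genes with a lower level at each later doubling in both methods was not counted. Psmb10 and Psmf1 had a higher level at each later doubling in both methods.

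The proteasome genes differed more between library methods than between groups. With the groups in the model, 28 of 45 genes were lower in ribodepleted than in poly(A) libraries, which is 62.2% against 16.4% of all genes, and 2 were higher, which is 4.44% against 20.9%. The median difference was -0.59, against 0.04 for all genes, while that of PD14 against PD2 was -0.25. Psmb3 differed most, at -1.04 ± 0.12 (limma adjusted p = 0.00635), followed by Psmd8 at -0.94 ± 0.12 (adjusted p = 0.00713) and Psma7 at -0.91 ± 0.12 (adjusted p = 0.00847). For Psmb3 the ribodepleted libraries, at 128 to 193 TPM, did not overlap the poly(A) libraries, at 303 to 369 TPM. The 2 genes that were higher in ribodepleted libraries were Psme4, at 0.64 ± 0.12 (adjusted p = 0.0151), and Psma8, at 0.86 ± 0.23 (adjusted p = 0.0384). These counts changed with the single library left out, while the median difference stayed between -0.61 and -0.48. Each such fit has 1 residual degree of freedom fewer, and the cause of the changed counts was not tested. Since each method was used for 1 replicate number only, library method and any other difference between the replicates cannot be told apart.

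**Figure D5:**
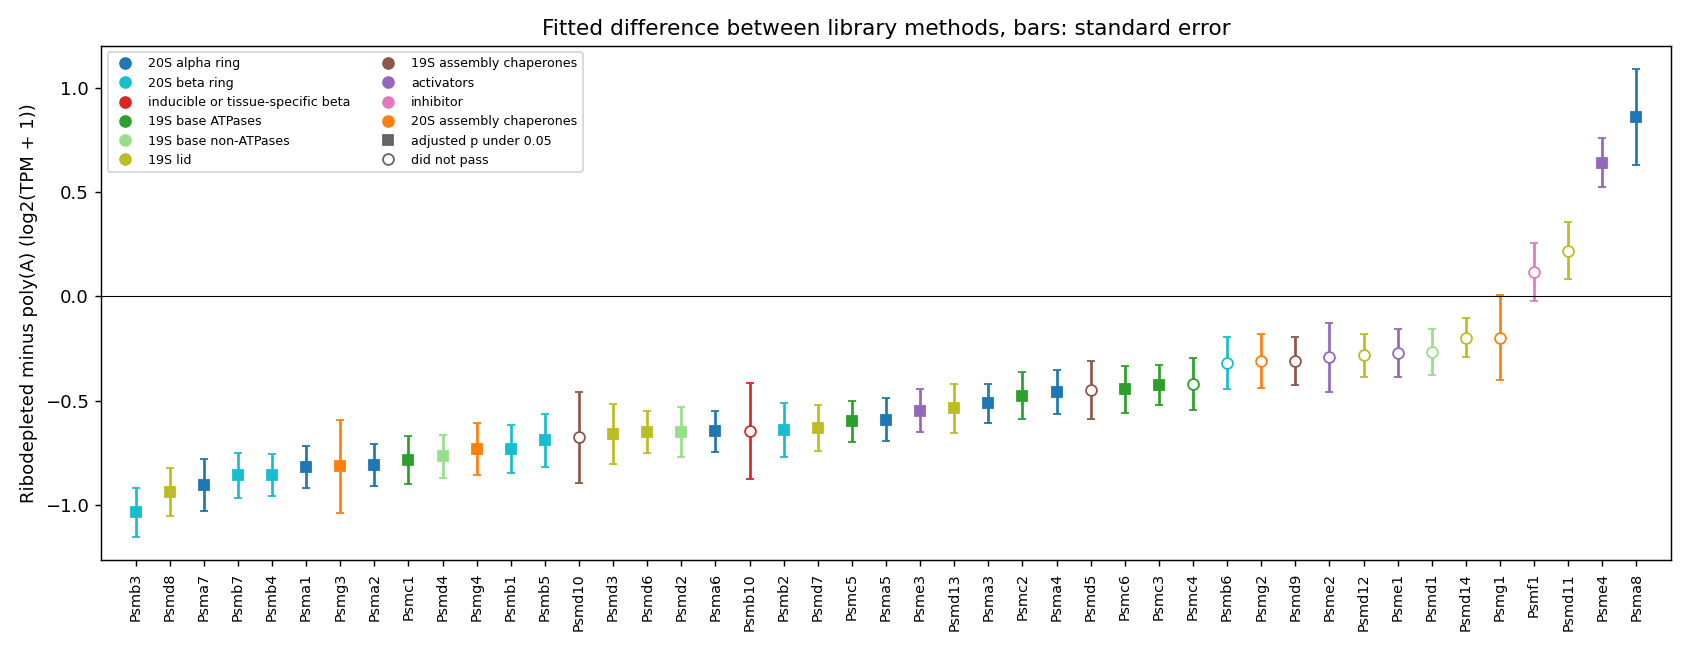
Fitted difference of the ribodepleted minus the poly(A) libraries for each proteasome gene in log2(TPM + 1), with its standard error (3 libraries per method) and the groups in the model, filled squares for an adjusted p under 0.05. Psmb3 is lowest at -1.04, and Psma8 and Psme4 are highest at 0.86 and 0.64.

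Subunits that stand in equal number in the particle did not have equal transcript levels per length. Among the 14 constitutive core genes the highest, Psmb1 in every library, exceeded the lowest 2.12, 2.35 and 2.16 times at PD2, PD8 and PD14 in ribodepleted and 2.09, 2.66 and 2.84 times in poly(A) libraries. Among the 17 genes of the 19S particle the highest was Psmd8 in every library and the lowest Psmd13 (ribodepleted) or Psmd11 (poly(A)). The ratio was 3.62, 3.46 and 2.71 in ribodepleted and 8.58, 4.96 and 4.64 in poly(A) libraries, lowest at PD14 in both. As Psmd8 is the upper value throughout, its own lower level at PD14 enters this ratio. The divisor moved too. Psmd11 was at 66.0, 84.6 and 78.1 TPM at PD2, PD8 and PD14 in poly(A) libraries, higher than at PD2 later on. Psmd13 was at 78.1, 73.4 and 62.6 TPM in ribodepleted libraries, lower at each later doubling. The mean of Psme1 and Psme2 over the median core level was 0.426, 0.602 and 0.649 at PD2, PD8 and PD14 in ribodepleted and 0.311, 0.414 and 0.522 in poly(A) libraries. That median core level was itself 189, 167 and 135 TPM in ribodepleted and 274, 265 and 266 TPM in poly(A) libraries. The ratio in ribodepleted libraries thus reflects a lower divisor as well.

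Genes that work with the proteasome were counted in lists for PD14 against PD2, for which the median over all genes was 0.06. Of 5 tested genes with other names that belong to the particle or its assembly, 0 passed (median -0.14); Pomp, the maturation factor of the core, was at 0.14 ± 0.19 and the ubiquitin receptor Adrm1 at -0.28 ± 0.17 (adjusted p = 0.642 and 0.295), and Paaf1 was not analysed here. Of 18 shuttles, deubiquitinases and other partners of the proteasome, 1 fell and 0 rose, against 4.77% of all genes lower (median -0.17). It was Rad23b, which carries ubiquitinated proteins to the proteasome, with 200.4, 152 and 109.6 TPM at PD2, PD8 and PD14 in ribodepleted and 275, 189 and 147 TPM in poly(A) libraries (-0.88 ± 0.11, limma adjusted p = 0.0214). The deubiquitinases Uchl5 and Usp14, which sit on the 19S particle beside Psmd14, were at -0.75 ± 0.17 and -0.60 ± 0.22 and did not pass (adjusted p = 0.0519 and 0.139). Of 12 genes of ubiquitin and its activating and conjugating enzymes, 1 fell and 0 rose, beside the same 4.77% of all genes (median -0.14). This was the activating enzyme Uba6, with 58.7, 39.4 and 33.6 TPM in ribodepleted and 62.2, 35.7 and 24.1 TPM in poly(A) libraries (-1.06 ± 0.18, limma adjusted p = 0.0312). Both genes were lower at each later doubling in both methods. Leaving out a PD8 or PD14 library ended both calls, as did leaving out the PD2 poly(A) library for Uba6 (adjusted p up to 0.0932 for Rad23b and 0.110 for Uba6). Both calls were also lost without the library method block, and that of Uba6 without the filter on low TPM and without the mean-variance trend.

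Of 10 regulators of proteasome genes, 0 passed (median 0.07). Ddi2 was counted both here and in the list of shuttles, deubiquitinases and other partners. Nfe2l1 had 194, 233 and 248 TPM at PD2, PD8 and PD14 in ribodepleted and 190.3, 257 and 242 TPM in poly(A) libraries, lowest at PD2 in both methods (0.35 ± 0.12, adjusted p = 0.118). Ngly1, the enzyme that removes sugars from Nfe2l1 on its way to activation, was at 0.58 ± 0.15 (adjusted p = 0.0688), and Nfe2l2 at 0.07 ± 0.14 (adjusted p = 0.749). Of 6 partners of the inducible proteasome, 3 rose and 0 fell (median 1.73, beside 0.06 for all genes and 6.41% of them higher). Psmb8 had 2.79, 13.1 and 22.4 TPM in ribodepleted and 4.24, 15.9 and 44.9 TPM in poly(A) libraries (2.88 ± 0.24, limma adjusted p = 0.0166). Tap1 and Tap2, which together carry the cut peptides into the endoplasmic reticulum, rose by 1.80 ± 0.29 and 2.32 ± 0.16 (adjusted p = 0.0305 and 0.0125). Each of these 3 calls was lost when a PD8 or PD14 library was left out and held when a PD2 library was (adjusted p up to 0.0790, 0.103 and 0.0790 for Psmb8, Tap1 and Tap2). All 3 were lost without the library method block, and that of Tap1 also without the filter on low TPM. Of Tap2, 533 exonic bases overlap Gm15821 on the opposite strand. Psmb8 and Tap2 also share exonic bases with Gm20496, which is not in the table. Psmb9 was at 1.66 ± 0.38 (adjusted p = 0.052), with 1.49, 1.47 and 3.90 TPM in ribodepleted and 1.54, 3.34 and 11.8 TPM in poly(A) libraries, and 212 of its exonic bases overlap Tap1 on the opposite strand. The members of this family that belong to the same interferon-inducible set, Psmb10, Psme1 and Psme2, were higher at PD14 than at PD2 in both methods as well, by values that did not pass.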

How the data were processed

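Per the submitters' processing notes, bcl2fastq, cutadapt 1.14, HISAT2 2.0.5 and StringTie 1.3.1c were used with the mm10 build; their roles and the gene annotation are not given in the sources used here. The authors deposited TPM per gene symbol for 6 libraries; 0 sample columns were left unused. TPM hold no depth, so no counting error is given.

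TPM were analysed as log2(TPM + 1), which understates changes of low genes, with limma 3.58.1 in R 4.3.3. Genes with at least 1 TPM in at least 2 of 6 libraries were tested (13332). The model held the 3 groups and library method, with a mean-variance trend (2 residual and 3.22 prior degrees of freedom). P-values were two-sided and Benjamini-Hochberg adjusted over all genes tested, with a threshold of 0.05. Library method served as the replicate block because the labels say that the replicate number marks it; deviations from the group means of same-numbered libraries correlated at 0.664 to 0.854. The fit was tested on simulated data.

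The proteasome genes and the lists were chosen with earlier results of these data known. One gene of a list is not reported here. Genes named were those past a threshold, those with the highest and lowest level, the 3 largest differences in each direction or between methods, and a panel by role. Positions and exon overlaps came from GENCODE M21, and near-identical copies from blastn 2.17.0. Alternatives were pseudocount, filter, scaling, trend, no block, and each library left out.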

Additional observations from a re-analysis of the deposited data

Results flagged for a closer look

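In 9 of the 45 proteasome genes tested, the PD14 minus PD2 difference in log2(TPM + 1) had one sign in the ribodepleted and the opposite sign in the poly(A) libraries; with 1 library per group and method the difference between methods was not tested. Below 0 in the ribodepleted and above 0 in the poly(A) libraries were Psma4 (-0.295 and 0.019), Psmb1 (-0.281 and 0.084), Psmb5 (-0.383 and 0.087), Psmd9 (-0.053 and 0.040), Psmd10 (-0.533 and 0.510), Psmd11 (-0.311 and 0.238) and Psmd13 (-0.315 and 0.050). Above 0 in the ribodepleted and below 0 in the poly(A) libraries were the core chaperones Psmg2 (0.118 and -0.289) and Psmg3 (0.412 and -0.320). The difference between methods was widest for the base chaperone Psmd10. For comparison, 4018 of the 13332 genes tested had opposite signs.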

How the results depend on the processing

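Over all alternatives, 0 results turned round in sign while past the threshold. The 2 genes lower at PD14 than at PD2 became 0 without the filter on low TPM, 0 without the replicate block and 0 without the mean-variance trend, and 0 to 1 with 1 library left out. Without the block, the adjusted p was 0.727 for Psmd8 and 0.401 for Psmd14, and 0 of all genes passed; both kept their calls with a pseudocount of 0.1, quantile normalization and median-ratio scaling. The 2 genes higher in the ribodepleted than in the poly(A) libraries became 1 with a pseudocount of 0.1, and 0 to 1 with 1 library left out. The 28 lower ones ranged from 23 to 31 under other settings and from 2 to 33 with 1 library left out. The counts of PD8 against PD2, PD14 against PD8, the late minus the early step and the F test were 0 in every alternative. Calls over all genes for PD14 against PD2 were 1490, and 404 without the filter, 938 without the trend, 25 and 20 without the PD8 ribodepleted and poly(A) libraries, and 0 and 5 without those of PD14; the cause was not tested, though a left-out library leaves 1 residual degree of freedom fewer. The sign held in every alternative for 36 of 45 genes in PD14 against PD2, 34 in PD8 against PD2, 14 in PD14 against PD8 and 43 in ribodepleted against poly(A). Depth could not be assessed from TPM.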

Other observations

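Of symbols that begin like the proteasome genes but were not counted among them, Psmc3ip, a meiotic recombination cofactor, had 10.6, 7.59 and 5.72 TPM at PD2, PD8 and PD14 in ribodepleted and 9.78, 8.43 and 8.23 TPM in poly(A) libraries, lower at each later doubling in both methods. The 46 proteasome genes lie on 16 chromosomes. Exonic bases of 7 are shared with another gene in the table, and 12 have a near-identical copy elsewhere, 3 of them with that copy in the table.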
